A study of Brassica napus with 6 samples.

Results

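The 86 genes described here were chosen by their measured counts, as genes that had next to no counts in microspores before stress and reached a set minimum in each heated culture of oilseed rape (Brassica napus). A gene was selected on having 10 CPM or more (CPM being its count divided by the library's total count and multiplied by 1000000) in each of the 3 heated libraries, and 3 counts or fewer summed over the 3 unheated libraries. Of the 104573 genes in the count table, 96 met both limits. The 10 of these that were among the 100 most abundant genes of both heated replicates 1 and 2 were set aside, which left 86. The low level before stress and the presence in each heated culture are therefore the way the genes were picked and not findings, and no test of these genes between the groups is given as support.

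A microspore is the immature male gametophyte of a flowering plant, which normally divides and matures into pollen. In some species, oilseed rape among them, microspores put into culture under stress can leave that path and divide into an embryo instead. The late unicellular stage, at which a large vacuole pushes the nucleus aside, is the stage that responds best, and heat is the usual stress in this species. The first multicellular structures, still held in the microspore wall, are called proembryos.

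The samples labelled VM are vacuolated microspores sampled at day 0 and labelled untreated, and those labelled HS4d are cultures kept at 32 °C until day 4, which held microspores together with proembryos. Each group has 3 libraries. All 6 come from line DH-4079 of cultivar Topas. The labels give no unheated culture of day 4, so effects of heat cannot be told apart from those of days in culture or of developmental stage. Each library was made from the RNA of a whole culture, in which more cells of a type and more RNA per cell cannot be told apart. HS4d replicate 3 stood apart from the other HS4d libraries, and its scaling factor was nearer to those of VM. By TMM (a scaling that takes most genes to be equal between libraries), the factor was 1.184 in HS4d replicate 3. In HS4d replicates 1 and 2 it was 0.550 and 0.567, and in VM it was 1.365 to 1.429. Why replicate 3 differed was not tested. Over the 7481 genes with 10 CPM or more in each HS4d library, log2 CPM correlated at 0.973 between replicates 1 and 2, but at 0.208 and 0.192 between those and replicate 3 (Pearson, across genes, which are not independent replicates and share the library and its depth). Where the size of a gene's rise rests on replicate 3, its value without that library is given too. Totals ran from 29144220 to 39558658 counts, so 3 counts were worth 0.0758 to 0.103 CPM.

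All 86 identifiers begin with GSBRNA2T, and none with ENSRNA, the prefix of 3.38% of the rows. The files do not pair these identifiers with product names, and 0 of the identifiers in the count table were found in the reference gene table used here. The genes are therefore named by identifier only, with no product, position or sequence, and the pathway and cell type lists planned by product name were not analysed here.

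Few of the genes silent before stress met the rule. Of the 35313 genes with 3 counts or fewer over VM, 406 had 10 CPM or more in HS4d replicate 3, and 787 had it in both HS4d replicates 1 and 2. The 96 genes found in both lists were 23.6% of the first list and 12.2% of the second. For comparison, 7481 of all 104573 genes had 10 CPM or more in each HS4d library, whatever their counts in VM. The matching shares of such lists over all genes were not computed. Neither the overlap nor the shortfall is therefore read as particular to genes silent before stress. The 310 genes of the first list that fell short had a median of 22.1 CPM in replicate 3 and of 1.87 and 1.39 CPM in replicates 1 and 2. In replicate 1, 182 of them stood between 1 and 10 CPM and 5 had no count at all. The 691 genes of the second list that fell short had medians of 47.4 and 41.4 CPM in replicates 1 and 2 and of 0.22 CPM in replicate 3, where 83 had no count. Without the requirement on replicate 3, and with the same genes set aside, the rule picks 775 genes in place of 86.

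Before stress, these genes were close to undetected by construction, and what counts they had were few. Together, the 86 genes had 38, 31 and 11 counts in VM replicates 1, 2 and 3, out of 31689399, 32861160 and 33375742 counts. No count was recorded in any VM library for 42 of the genes. For 19 genes there was 1 count over the group, for 14 there were 2 and for 11 there were 3. Counts in VM came from a single library for 33 genes, and 1 gene had a count in each VM library. The authors' transformed log2 values, in which a count of 0 sits at a floor of 3.04, put 59, 65 and 78 of the 86 genes on that floor in VM replicates 1, 2 and 3. On that scale the 86 genes ranged from 8.73 to 15.4 in HS4d replicate 1 and from 8.59 to 15.6 in replicate 2, with no gene at the floor. HS4d replicate 3 has no column in that table as used here.

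**Figure D1:**
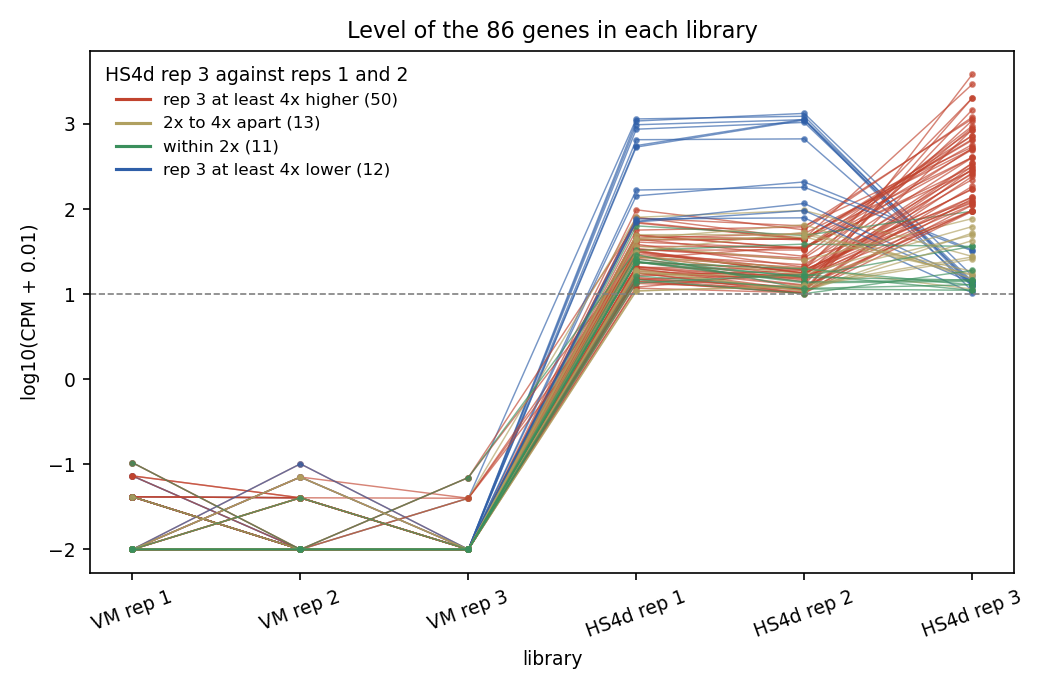
Level of each of the 86 genes in the 6 libraries, as log10(CPM + 0.01) with CPM on the library total, 1 line per gene, coloured by how HS4d replicate 3 compares with the mean of replicates 1 and 2. All lines start near the bottom and end above the dashed 10 CPM limit, as the rule requires, and the order of the genes in HS4d replicate 3 is not that in replicates 1 and 2.

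Some genes lay close to the limits. The gene with the lowest minimum was GSBRNA2T00066812001, with 14.8, 10.1 and 19.0 CPM in HS4d replicates 1, 2 and 3 and no count in VM. Just outside was GSBRNA2T00157904001, which had 16.3, 9.99 and 46.8 CPM and no count in VM. For 20 of the 86 genes the lowest HS4d library was under 12 CPM, and 21 further genes missed the limit with a minimum from 8 to 10 CPM. On the VM side, 6 genes met every other condition with 4 counts in place of 3.

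In the heated cultures the 86 genes made up a small part of the RNA. Their share of a library's counts was 0.871%, 1.02% and 3.18% in HS4d replicates 1, 2 and 3, a mean of 1.69% ± 1.29 (SD, n = 3). Without replicate 3 the mean was 0.948%. The higher share in replicate 3 follows from the selection, which set aside the most abundant genes of replicates 1 and 2 and not those of replicate 3. The 10 genes so removed held 2.12% and 2.05% of replicates 1 and 2 but 0.017% of replicate 3. With them put back, the 96 genes held 2.99%, 3.08% and 3.20% of the 3 libraries.

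Levels spanned more than an order of magnitude within each library. In HS4d replicate 1 the 86 genes ran from 10.8 CPM through a median of 30.2 CPM to 1146 CPM. Replicate 2 was similar, from 10.1 CPM through 19.9 CPM to 1332 CPM. Replicate 3 ran from 10.4 CPM through 120.6 CPM to 3817 CPM. The tops of replicates 1 and 2 are capped by the selection. With the 10 removed genes put back, the highest values were 3193, 3187 and 3817 CPM and the medians 32.6, 25.2 and 95.7 CPM. For comparison, the medians of all 7481 genes with 10 CPM or more in each HS4d library were 18.5, 18.8 and 36.6 CPM. In replicate 3, 46 of the 86 genes reached 100 CPM, against 9 and 10 in replicates 1 and 2. The 10 removed genes were all above 100 CPM in replicates 1 and 2, so the counts for those libraries are lowered by the selection. The 100 most abundant genes of replicate 3 included 21 of the 86. The matching counts for replicates 1 and 2 are set by the selection, and with the removed genes put back they were 10 and 11.

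A few genes carried much of the signal, and different ones did so in replicate 3. The 5 highest of the 86 held 54.3% and 58.0% of the group's counts in HS4d replicates 1 and 2 and 38.4% in replicate 3. Which genes rank highest in replicates 1 and 2 depends on the selection, which set aside the most abundant genes of those libraries only. The shares and rankings here were not computed with those genes put back. Replicates 1 and 2 had 16 genes in common among their 20 highest. Replicate 3 shared 6 with replicate 1 and 4 with replicate 2. Across the 86 genes, log2 CPM correlated at 0.968 between replicates 1 and 2, at -0.28 between replicates 1 and 3, and at -0.35 between replicates 2 and 3. The Spearman values for the same pairs were 0.908, -0.073 and -0.16. These coefficients describe genes that all lie above 1 shared limit and carry no p-value.

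No gene of the 86 was at 100 CPM or more in each heated culture, and for 58 of them the lowest library was under 20 CPM. The highest minimum belonged to GSBRNA2T00092120001, a gene named after its values were seen. It had no count in VM and 78.2, 63.3 and 535.1 CPM in HS4d replicates 1, 2 and 3. Pooled over the group, this was at least 7097-fold above a level of 3 counts over VM, and at least 2272-fold without replicate 3.

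The genes fell into unlike classes by how HS4d replicate 3 compared with the mean of replicates 1 and 2. Replicate 3 was at least 4 times higher for 50 genes (58.1%), at least 4 times lower for 12 genes (14.0%), and within 2-fold for 11 genes (12.8%). The other 13 genes were between 2 and 4 times apart. The 10 genes removed for their abundance in replicates 1 and 2 were all at least 4 times lower in replicate 3, so the balance of the classes depends on that step. Among the 7481 genes with the same limit in each HS4d library, which include the 86, the shares were 19.8%, 3.21% and 47.1%. The median log2 ratio of replicate 3 to the mean of replicates 1 and 2 was 2.80 over the 86 genes and 0.88 over the 7481 genes. With libraries scaled by TMM, both medians were lower, at 1.71 and -0.21, so that the second turned its sign. On that scale 37 of the 86 genes were at least 4 times higher in replicate 3, 18 at least 4 times lower and 11 within 2-fold, against 3.97%, 8.01% and 56.8% of the 7481 genes. Only 3 of the 11 genes within 2-fold on library totals were also within 2-fold on the TMM scale. These are values of 1 library against a pair with the same label, so no test was made.

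**Figure D2:**
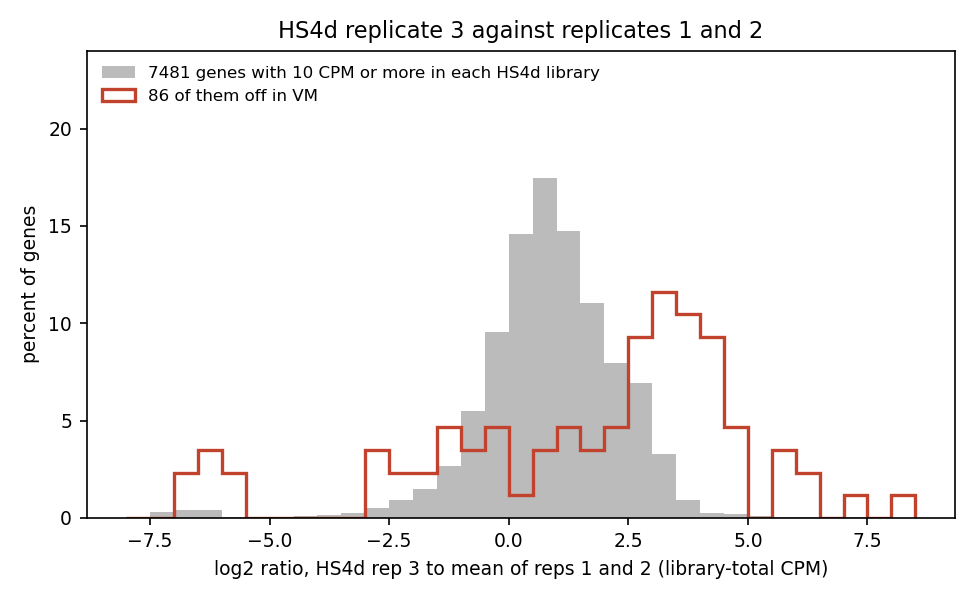
Distribution of the log2 ratio of HS4d replicate 3 to the mean of HS4d replicates 1 and 2, on library-total CPM, in percent of genes per bin of 0.5 log2 units, for the 86 genes (red outline) and for all 7481 genes with 10 CPM or more in each HS4d library (grey). The 86 genes are spread from -6.60 to 8.09 with a median of 2.80, and the grey genes have a median of 0.88.

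The 50 genes led by replicate 3 held 3.09% of its counts, which was 97.1% of all counts of the 86 genes in that library. They held 0.164% and 0.126% of the counts of replicates 1 and 2. Their medians were 27.8, 19.1 and 345.1 CPM in HS4d replicates 1, 2 and 3. None of them was above 98.0 CPM in replicate 1 or under 93.8 CPM in replicate 3.

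GSBRNA2T00154887001 had the highest mean of the 86 genes and the largest lead of replicate 3. It had 0, 3 and 0 counts in VM replicates 1, 2 and 3, and its heated libraries had 17.9, 10.1 and 3817 CPM for replicates 1, 2 and 3. Replicate 3 stood 272.5 times above the mean of the others, and the gene was the sixth most abundant of that library, while in replicate 2 it only just met the limit. The ratio of pooled counts per library total, HS4d to VM, was 39869, with an exact 95% interval (Clopper-Pearson) from 13642 to 193330 that covers counting error only. Its size rests on replicate 3. Without that library the mean level was 14.0 CPM in place of 1282 CPM, and the pooled ratio 438 (exact 95% interval 149 to 2128).

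GSBRNA2T00130695001 was second by mean, with no count in VM and 80.3, 45.0 and 2922 CPM in HS4d replicates 1, 2 and 3. Pooled over HS4d it was at least 31623-fold above 3 counts over VM, but replicate 3 gave 95.8% of its HS4d counts, and without that library the bound was 1958-fold. GSBRNA2T00130694001, whose identifier number is the one before it, also had no count in VM, with 20.0, 11.2 and 2012 CPM. In both genes replicate 3 was far above the others and replicate 1 was above replicate 2.

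The 12 genes led by replicates 1 and 2 showed the reverse order. They held 73.0% and 81.3% of the counts of the 86 genes in those libraries, and 0.618% in replicate 3. GSBRNA2T00026105001 had no count in VM. It had 1084, 1332 and 16.5 CPM in the HS4d libraries in the same order, and pooled it was at least 27496-fold above 3 counts over VM. GSBRNA2T00087683001 had 1, 0 and 1 counts in VM replicates 1, 2 and 3, and 1146, 1234 and 13.0 CPM in the HS4d libraries. GSBRNA2T00076419001 had 1, 0 and 0 counts in VM and 979.4, 1124 and 10.9 CPM, the lowest ratio of replicate 3 to the others. These 3 genes were abundant in replicates 1 and 2 and came only just over the limit in replicate 3.

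A gap divided these 12 genes. In 7 of them, replicate 3 stood at 1.03% to 1.88% of the mean of replicates 1 and 2, with 10.9 to 16.5 CPM against 535.2 to 1146 CPM in replicate 1. The next gene up was at 13.3%, and none of the 86 lay between 2% and 10%. The 10 genes set aside for their abundance stood at 0.413% to 1.31%. Of the 90 genes that were among the 100 most abundant of both replicates 1 and 2, 89 were under 2% in replicate 3, with a median of 0.821% and quartiles of 0.651% and 1.10%. Among the 7481 genes, 95 (1.27%) were under 2%, and 77 of these 95 were among those 90. All 7481 have 10 CPM or more in replicate 3, so only genes abundant in replicates 1 and 2 could fall under 2%. That overlap is therefore largely set by the limit. Of the 691 genes silent in VM that met the limit in replicates 1 and 2 only, 636 (92.0%) were under 2%, with a median of 0.379%. Those 691 were picked for being under 10 CPM in replicate 3. Whether reads carried over between libraries gave these values was not tested. Without the 7, an option chosen after seeing the data, 79 genes remain, and they hold a mean of 1.24% of the HS4d counts.

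In the opposite direction, the fractions are bounded by the rule. Every gene has 10 CPM or more in replicates 1 and 2, so a low fraction is possible only where replicate 3 is very high. Among the 50 genes led by replicate 3, their mean level ranged from 0.367% to 23.6% of that in replicate 3, with a median of 7.19%, and it was under 2% for 5 genes.

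**Figure D3:**
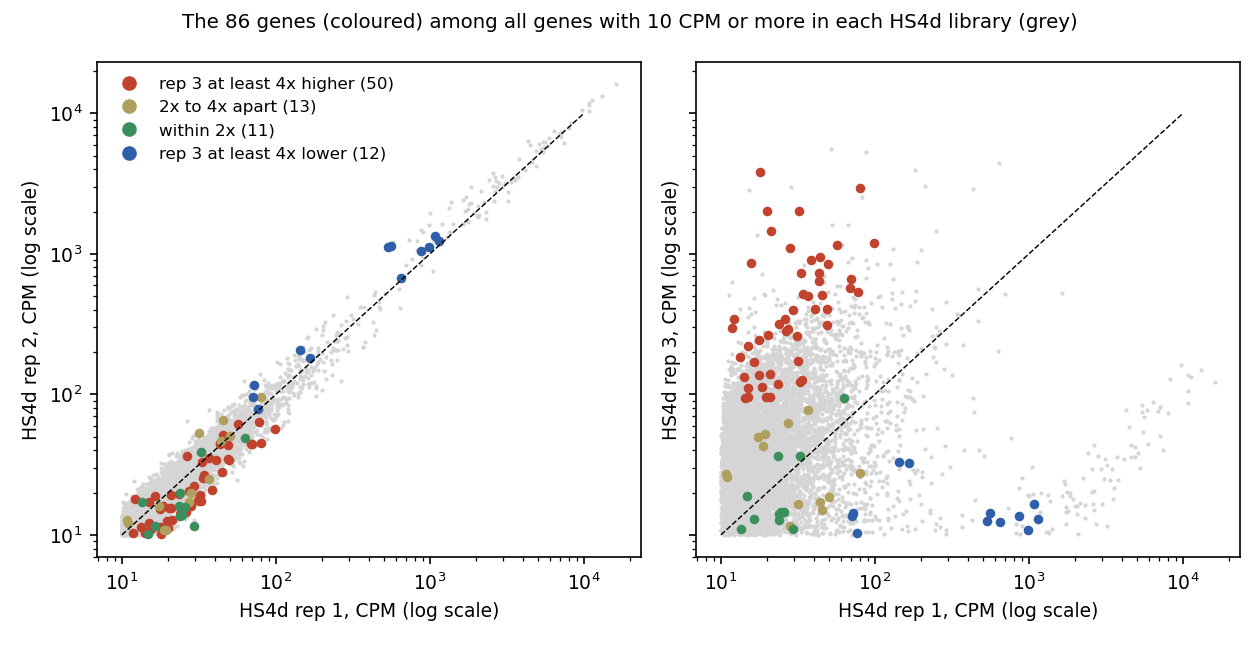
CPM of HS4d replicate 2 (left) and HS4d replicate 3 (right) against HS4d replicate 1, on log axes, for the 86 genes (coloured by class) and for all 7481 genes with 10 CPM or more in each HS4d library (grey). The dashed line marks equal values: the 86 genes follow it on the left, while on the right 50 lie at least 4 times above and 12 at least 4 times below the mean of replicates 1 and 2.

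The 11 genes within 2-fold between replicate 3 and the mean of the others were mostly of low abundance. In 9 of them all 3 heated libraries lay within 2-fold of each other, and the widest gap was 2.63-fold in GSBRNA2T00089778001 (29.2, 11.5 and 11.1 CPM), a gene named after its values were seen. Their share of a library was 0.029%, 0.022% and 0.028% in the HS4d libraries, and 8 of them had no count in VM. GSBRNA2T00025435001 had no count in VM and 16.4, 11.7 and 12.9 CPM in the HS4d libraries, 13.6 ± 2.46 CPM (SD, n = 3). GSBRNA2T00136273001 had no count in VM and 13.6, 17.1 and 11.1 CPM, 13.9 ± 3.01 CPM (SD, n = 3). These had the smallest coefficients of variation, 0.18 and 0.217, among the genes with no VM count. That evenness held on library totals only. On the TMM scale GSBRNA2T00025435001 had 29.8, 20.5 and 10.9 CPM and GSBRNA2T00136273001 had 24.7, 30.1 and 9.35 CPM, with coefficients of 0.464 and 0.503. Pooled over HS4d they were at least 438-fold and 462-fold above 3 counts over VM.

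Among all 86 genes the least variable was GSBRNA2T00106935001, a gene named after its values were seen. It had 1, 0 and 2 counts in VM and 32.7, 38.8 and 36.4 CPM in the HS4d libraries, 35.9 ± 3.05 CPM (SD, n = 3). Its pooled ratio of HS4d to VM was 1183 (exact 95% interval 404.5 to 5740, counting error only). On the TMM scale its HS4d values were 59.5, 68.3 and 30.7 CPM, so its evenness depends on the scaling. Over the 86 genes the median coefficient of variation across the HS4d libraries was 1.15, against 0.451 over the 7481 genes. It was under 0.35 for 9 of the 86 genes (10.5%) and for 38.8% of the 7481 genes.

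Replicates 1 and 2 also differed from each other in a way that went with the class of the gene. Both are used in sorting the genes into classes, so the following counts are a description. Replicate 1 was above replicate 2 for 41 of the 50 genes led by replicate 3, with a median log2 ratio of 0.43, and for 9 of the 11 genes in the 2-fold class. It was above replicate 2 for 0 of the 12 genes led by replicates 1 and 2, with a median log2 ratio of -0.28. The 10 genes removed for their abundance, of the same class, together held 2.12% of replicate 1 and 2.05% of replicate 2. Replicate 1 was therefore above replicate 2 for at least 1 of them, so the count of 0 depends on that removal. Sorted in the same way, the 7481 genes had replicate 1 above replicate 2 for 53.3% of those led by replicate 3, for 48.0% of those within 2-fold and for 44.2% of those at least 4 times lower in it. With the same classes and TMM scaling, replicate 1 was above replicate 2 for 44 of the 50 genes and for 2 of the 12, and for 62.1% and 50.4% of the 7481 genes so sorted. The differences were small beside those from replicate 3: 83 of the 86 genes were within 2-fold between replicates 1 and 2.

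**Figure D4:**
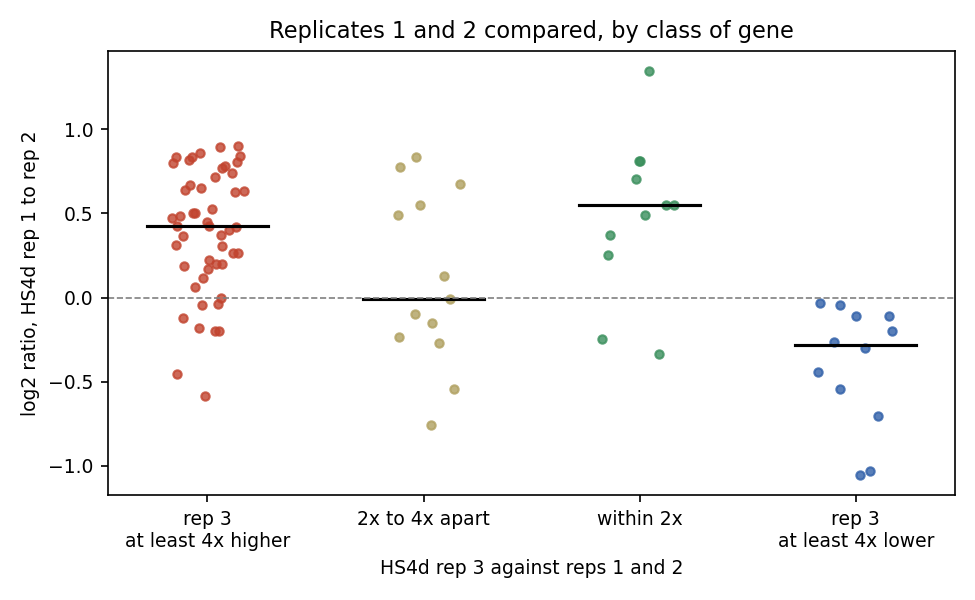
Log2 ratio of HS4d replicate 1 to replicate 2 on library-total CPM for each of the 86 genes, by class of HS4d replicate 3 against replicates 1 and 2, with a black line at each median. Of the 50 genes led by replicate 3, 41 lie above 0, and all 12 genes at least 4 times lower in it lie below 0, 2 of them so close to it that TMM scaling puts them above.

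Some of the genes had neighbouring identifiers, which the rule did not use. For 11 of the 86 genes (12.8%), another of the 86 had an identifier number within 10 of its own, in 3 runs of 5, 3 and 3 genes. The share was 69.3% for the 7481 genes, a list so much longer that close numbers are common in it. All 11 genes were at least 4 times higher in replicate 3. Identifiers are names, and the files give no position for them. With no sequence at hand, how far near-identical copies shared reads cannot be told.

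In the run of 5, which holds GSBRNA2T00130694001 and GSBRNA2T00130695001, replicate 3 was between 30.4 and 129.2 times above the mean of replicates 1 and 2. The other 3 genes of the run, named after their values were seen, were GSBRNA2T00130689001, GSBRNA2T00130691001 and GSBRNA2T00130692001. GSBRNA2T00130689001 had no count in VM and 21.1, 12.8 and 1466 CPM in the HS4d libraries. GSBRNA2T00130691001 had no count in VM and 28.1, 16.2 and 1098 CPM. GSBRNA2T00130692001 had 1 count in VM and 38.6, 20.8 and 903 CPM. In each of the 5 genes replicate 3 was highest, followed by replicate 1 and then replicate 2. GSBRNA2T00130693001, the identifier between them, had no count in any library.

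Another run of 3 held GSBRNA2T00121207001, with 1 count in VM and 32.1, 19.2 and 2011 CPM in the HS4d libraries, and GSBRNA2T00121209001, with no count in VM and 15.8, 11.3 and 856.1 CPM. The third was GSBRNA2T00121218001, with no count in VM and 11.8, 10.3 and 296.1 CPM, where replicate 3 was 26.8 times above the mean of the others. All 3 were named after their values were seen. The identifiers GSBRNA2T00121208001 and GSBRNA2T00121210001 beside them missed the rule but had the same order of libraries. GSBRNA2T00121208001 had no count in VM and 8.27, 5.31 and 549.6 CPM, too low in replicates 1 and 2. GSBRNA2T00121210001 had 15 counts in VM, above the limit, and 87.1, 48.5 and 5288 CPM. Over the 4 identifiers from GSBRNA2T00121207001 to GSBRNA2T00121210001 replicate 3 was 63.4 to 81.0 times above the mean of replicates 1 and 2. Further along this run, GSBRNA2T00121213001 had 200 counts in VM and 1.51, 0.986 and 46.9 CPM in the HS4d libraries. Its replicate 3 was 37.6 times above the mean of the others. Some identifiers within the run did not share so large a lead of replicate 3. Among these were GSBRNA2T00121212001 with 1.17, 2.43 and 1.94 CPM and GSBRNA2T00121216001 with 26.2, 22.5 and 27.3 CPM in the HS4d libraries. Both were well detected in VM, with 8877 and 3543 counts. In the last run, also of 3 genes, replicate 3 was 10.2 to 16.7 times above that mean.

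In the test of HS4d against VM across all genes, 9858 of 56949 tested genes (17.3%) were called higher in HS4d (quasi-likelihood F test in edgeR, with p adjusted by Benjamini-Hochberg and called under 0.05). All 86 genes passed the filter on low counts and all 86 were called higher. Since the rule used the same contrast, nothing is read from that count. Rises were 60.4% of all calls on the TMM scale and 33.7% with library size alone, where the median fitted change over the whole table moved from 0.07 to -0.78 on the log2 scale. The 86 genes were called higher on either scale. Leaving out VM replicate 2 lowered the count to 55, with 1934 of all 56949 tested genes called higher. Leaving out HS4d replicate 3 left it at 86, with 20220 of the 56949 called higher. Nothing in the labels says that the libraries of a group came from separate plants, although the series describes biological replicates, so the p-values measure the spread between these libraries.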

How the data were processed

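RNA was measured in 6 libraries, 3 of VM and 3 of HS4d. The authors deposited raw counts per gene, and a second table of variance-stabilised values on a log2 scale. The submitters' processing notes name fastp 0.22.0, HISAT2 and DESeq2. For the counting program, build, annotation and transformation settings, no entry is given in the sources used here. Libraries kept no strand, per the labels' protocols, so reads of a gene and an antisense partner cannot be told apart, and homoeologous copies of this allotetraploid may share reads.

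CPM was computed on library totals. HS4d was tested against VM with edgeR 4.0.16 in R 4.3.3 (filterByExpr with its minimum count of 10, TMM, quasi-likelihood F test, group as the only term), with Benjamini-Hochberg adjustment over all genes tested. The code was tested on simulated data. A fold against a group at 0 was computed against 3 counts over the group. Intervals and such floors rest on pooled counts, so they cover counting error only and not the spread between libraries. Without molecular identifiers several reads can come from 1 molecule, so counting error may be larger than they show.

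Genes named by rule were the 4 with the highest HS4d mean, the 2 with the highest and the 2 with the lowest ratio of replicate 3 to replicates 1 and 2, the 2 with the smallest coefficient of variation among those with no VM count, and 1 each just inside and outside the 10 CPM limit. The 86 genes, the classes and the lists were chosen with earlier results of these data known. Alternatives covered the rule's limits, scaling, filter, tool (DESeq2 1.42.0) and each library left out.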

Additional observations from a re-analysis of the deposited data

How the results depend on the processing

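The number of genes picked moved by over 1.5 times with a limit of 5 CPM (161 genes), of 20 CPM (28 genes) or of 0 counts over VM (42 genes). Leaving out 1 library gave 88 to 775 genes, the highest without HS4d replicate 3 and all others at 112 or fewer. TMM scaling gave 121, a limit of 10 counts over VM gave 116, and keeping the most abundant genes gave 96. Keeping those genes raised the mean share of HS4d counts from 1.69% to 3.09%, and leaving out 1 HS4d library gave 0.948% to 2.10%. The median log2 ratio of replicate 3 to replicates 1 and 2 was 1.71 on the TMM scale and 1.67 with DESeq2 size factors, and 2.64 to 2.94 with replicate 1 or 2 left out. Genes called higher over the whole table numbered 5241 with library size alone, 3314 with a replicate block, and 1934 to 20220 with 1 library left out, the lowest without VM replicate 2 and the highest without HS4d replicate 3. Of the 86 genes, 55 to 86 were called higher with 1 library left out. The DESeq2 Wald test called 76 and gave no adjusted p for the other 10. Over the whole table it called 14274 genes higher. With the replicate block 78 were called. Same-numbered libraries showed no shared deviation from their group means, with correlations of -0.012, -0.035 and -0.036 for replicates 1, 2 and 3. With 3 libraries per group, this cannot settle whether they were paired. None of the 86 was called lower in any of these fits. The cause of these shifts was not tested. Of 40 alternative means of genes named by rule, 37 stayed within 1 SD. The other 3, of even, low genes, rose beyond it on the TMM scale. Leaving out 1 of 3 libraries cannot move a mean by 1 SD of those libraries. The count within 1 SD therefore does not show that a mean is independent of any 1 library. GSBRNA2T00154887001 fell from 1282 to 14.0 CPM without HS4d replicate 3 and still counted as within. For genes with no VM count, depth limits the fold to a lower bound.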
